A study of Homo sapiens with 6 samples.

Results

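The cancer-testis antigen families were followed in BHT101, an established human cell line from an anaplastic thyroid carcinoma. Members were all protein-coding rows of the deposited expression table whose symbol starts with GAGE, MAGEA, MAGEB, MAGEC, XAGE, PAGE, SSX or CTAG, with SSX2IP left out. This gave 52 genes of 32896 rows. RNA-seq libraries were made from BHT101 cells 48 h after lipid transfection with a plasmid for SK4 (n = 3) or with a control plasmid (n = 3). SK4, also called KCa3.1, is a calcium-activated potassium channel encoded by KCNN4, and the series asked what its overexpression changes in these cells. All libraries were taken as 1 cell line, although 1 label of control replicate 3 gives another cell line number. The labels do not say whether the replicates were separate cultures. Intervals and p-values therefore measure only the spread between these libraries, which may be technical. The values are FPKM, fragments scaled to gene length and to the mapped total of the library. The families were chosen by their levels and by the lower GAGE2A values with SK4 in these same libraries, so neither is tested here.

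Cancer-testis antigens are proteins whose genes are normally active in germ cells of the testis and silent in most other adult tissues, largely through methylation of their promoters. Many lie in repeated clusters on the X chromosome and are switched on in tumours, where peptides from them can be presented to T cells. The MAGE-A, MAGE-B and MAGE-C proteins share a MAGE homology domain and act with E3 ubiquitin ligases. The GAGE, PAGE and XAGE proteins are small, related to each other and largely unstructured. The CTAG genes encode NY-ESO-1 and its relative LAGE-1, and the SSX genes encode transcriptional repressors known from the gene fusions of synovial sarcoma. The 5 CTAGE genes matched the CTAG letters of the rule but are a separate family on autosomes, and they are counted apart from CTAG below.

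Of the 52 members, 11 were on, meaning that 3 or more of the 6 libraries reached 1 FPKM. They came from 6 of the 9 families, and all 11 lay on the X chromosome. The genes on were 3 of 11 GAGE, 2 of 12 MAGEA, 1 of 6 MAGEB, 2 of 6 PAGE, 2 of 4 XAGE and 1 of 3 CTAG genes. None of the 3 MAGEC, 2 SSX and 5 CTAGE genes was on. Family genes without a protein-coding row in the deposited values, such as SSX2 and SSX4, are not counted, so these are shares of listed rows. The share on was 21.2% of the members, against 54.3% of the 18000 protein-coding rows and 43.6% of the 716 protein-coding rows on the X chromosome. PAGE5, MAGEA3, MAGEA6 and CTAG2 averaged 107 to 253 FPKM over the 6 libraries and together held 94.4% of the summed FPKM of all 52 members. PAGE5 ranked 152 among the 32896 rows by mean level, MAGEA3 292, MAGEA6 341 and CTAG2 384.

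**Figure D1:**
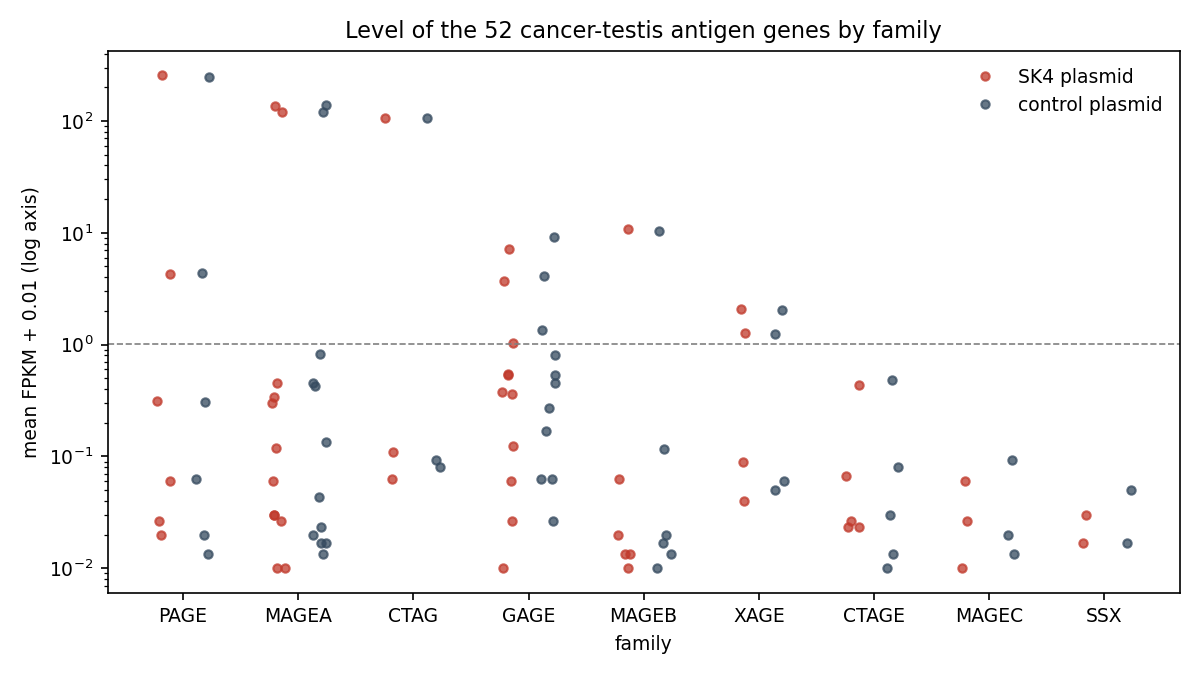
Mean FPKM plus 0.01 of each of the 52 members (log axis), by family, in the SK4 plasmid libraries (red, left) and in the control plasmid libraries (dark blue, right), n = 3 each. The dashed line marks 1 FPKM, and PAGE5, MAGEA3, MAGEA6 and CTAG2 stand apart near the top with 107 to 253 FPKM.

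The 250 bases before the annotated starts are shown for some relatives that were on and for some that were not. The sequences are RefSeq promoters of GRCh38.p14, printed from 5′ to 3′ up to the base before the start, and the table matched 45 of the 52 members. Capitals mark CG dinucleotides, the sites that DNA methylation can occupy. MAGEA3 (chrX:152698544-152698793, plus strand) and MAGEA6 (chrX:152769690-152769939, minus strand) had the same letters over all 250 bases. MAGEA2 (chrX:152753885-152754134, minus strand) and MAGEA12 (chrX:152733507-152733756, plus strand), which lie between them and were not on, aligned with MAGEA3 at 88.7% identity over 186 and 177 columns of overlap. MAGEA2 shares 97.8% of its 150 nt windows with its copy MAGEA2B, so its own level depends on how shared reads were counted.
MAGEA3 and MAGEA6: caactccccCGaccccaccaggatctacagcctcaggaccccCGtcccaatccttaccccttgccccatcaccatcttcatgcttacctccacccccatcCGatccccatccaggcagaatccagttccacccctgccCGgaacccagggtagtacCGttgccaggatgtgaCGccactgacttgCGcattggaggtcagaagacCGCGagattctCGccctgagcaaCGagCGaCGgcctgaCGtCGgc
MAGEA2: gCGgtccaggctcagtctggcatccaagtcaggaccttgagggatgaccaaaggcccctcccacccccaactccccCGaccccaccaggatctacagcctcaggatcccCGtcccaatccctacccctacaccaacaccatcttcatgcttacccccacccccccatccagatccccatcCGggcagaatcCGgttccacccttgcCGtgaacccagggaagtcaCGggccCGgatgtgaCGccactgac
MAGEA12: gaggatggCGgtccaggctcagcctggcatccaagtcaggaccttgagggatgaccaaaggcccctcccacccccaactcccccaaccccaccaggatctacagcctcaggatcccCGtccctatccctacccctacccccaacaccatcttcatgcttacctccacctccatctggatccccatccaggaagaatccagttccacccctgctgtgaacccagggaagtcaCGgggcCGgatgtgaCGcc
The MAGEA3 and MAGEA6 window held 15 CG sites, the MAGEA2 window 9 and the MAGEA12 window 5. Because the annotated starts differ, the windows do not cover the same stretch of the repeat, so these counts cannot be set against each other. In the printed letters, many of the MAGEA3 sites lie past the end of the MAGEA2 and MAGEA12 windows. Over the stretch shared with MAGEA3, the MAGEA2 window held more sites than MAGEA3 and the MAGEA12 window fewer. The letters CCGGAA, searched on both strands as a core that ETS-type factors can bind, occurred in the MAGEA3 and MAGEA6 windows, 113 bases before the start. They occurred in 0 of the 35 windows of members that were not on and in 2 of the 10 windows of members that were on. Over 27305 promoters with 1 window per gene the share was 14.8%. The 2 windows are the same MAGEA3 and MAGEA6 sequence, and several of the 35 are GAGE copies with the same letters, so the windows are not independent. Variants of the letters were not counted, and CCGGAT stands in the printed MAGEA2 and MAGEA12 windows. These are matches of letters and say nothing about binding.

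In the PAGE cluster, PAGE5 (chrX:55220096-55220345, plus strand) and PAGE2 (chrX:55088768-55089017, plus strand) were on, and PAGE2B (chrX:55074780-55075029, plus strand) was not. The windows of PAGE2 and PAGE2B aligned at 86.5% identity over 251 columns, and those of PAGE2 and PAGE5 at 86.3% over 219 columns.
PAGE5: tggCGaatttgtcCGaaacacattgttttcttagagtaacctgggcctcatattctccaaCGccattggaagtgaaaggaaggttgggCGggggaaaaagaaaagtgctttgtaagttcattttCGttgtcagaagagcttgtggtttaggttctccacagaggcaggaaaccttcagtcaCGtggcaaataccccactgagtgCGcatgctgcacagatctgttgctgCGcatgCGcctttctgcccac
PAGE2: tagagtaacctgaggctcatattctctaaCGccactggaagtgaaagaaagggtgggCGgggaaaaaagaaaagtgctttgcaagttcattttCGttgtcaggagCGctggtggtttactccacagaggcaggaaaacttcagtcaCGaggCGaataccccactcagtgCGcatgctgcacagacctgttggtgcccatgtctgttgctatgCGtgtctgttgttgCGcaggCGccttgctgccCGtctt
PAGE2B: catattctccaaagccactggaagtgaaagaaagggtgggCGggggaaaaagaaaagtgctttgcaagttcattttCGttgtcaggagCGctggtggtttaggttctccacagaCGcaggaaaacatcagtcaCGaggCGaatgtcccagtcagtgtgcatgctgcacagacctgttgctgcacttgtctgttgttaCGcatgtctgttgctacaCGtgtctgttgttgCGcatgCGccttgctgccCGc
PAGE5 held 9 CG sites, and PAGE2 and PAGE2B held 11 each, and a link between the count of sites and the level was not tested. In the GAGE cluster the window of GAGE2A (chrX:49589246-49589495, plus strand) had 8 CG sites and matched 8 of the 9 other GAGE windows letter for letter over their overlap of 243 to 250 bases.
GAGE2A: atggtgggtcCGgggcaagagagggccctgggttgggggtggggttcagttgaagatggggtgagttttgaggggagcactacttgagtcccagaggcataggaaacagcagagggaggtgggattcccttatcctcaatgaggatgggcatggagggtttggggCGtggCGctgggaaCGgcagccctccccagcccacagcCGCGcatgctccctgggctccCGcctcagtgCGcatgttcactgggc
The mean levels of those 8 GAGE genes ran from 0.0083 to 1.19 FPKM, against 8.13 FPKM for GAGE2A itself. For GAGE12C, GAGE12E and GAGE12G among them, 100% of the 150 nt windows of the transcript also occurred in other GAGE genes, and for the rest a part did, so these single levels depend on how shared reads were counted. Over all matched windows, members that were on had a median of 9 CG sites (7 to 15) and members that were not on a median of 8 (1 to 18), against a median of 10 over all promoters. Methylation itself was not measured.

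The check of the plasmid came out as labelled. KCNN4 held 184, 148 and 169 FPKM in the SK4 libraries, against 8.31, 8.26 and 8.52 FPKM in the control libraries (log2 fold change 4.23; limma adjusted p = 8.83e-07). An exact two-sided permutation test over the 3 against 3 libraries gave p = 0.1, the smallest it allows. The libraries held an estimated 29700000 to 38500000 fragments, and control replicate 3 was the shallowest. Of 9 thyroid follicular markers, 1 was on, HHEX, a transcription factor gene that other tissues also use, at 7.4 to 8.48 FPKM in the SK4 and 7.0 to 8.14 FPKM in the control libraries. TG and TSHR were at or below 0.01 FPKM in every library and PAX8 was at 0.24 to 0.40 FPKM, while the epithelial keratin genes KRT18 and KRT19 were at 169.8 to 259 FPKM. Of 8 leukocyte and fibroblast markers, LUM and CD14 were on, and PTPRC, CD3E and COL1A1 stayed at or below 0.08 FPKM.

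With the SK4 plasmid, the 11 cancer-testis antigen genes that were on had levels close to those of the controls, and among them GAGE2A and GAGE13 had the lowest fold changes. Limma called 0 of the 11 tested members at an adjusted p below 0.05, against 0.00898% of the 11139 tested genes, which is 1 gene, KCNN4. At an unadjusted p below 0.05 there was 1 member, GAGE2A, against 1.65% of all tested genes. Since this contrast took part in choosing the families, these counts and the differences below are a description. The median log2 fold change was -0.011 over the 11 members and 0.011 over all tested genes. On the fitted scale, where a constant is added to FPKM, all 11 members had 95% confidence bounds under 1.5-fold both up and down. This scale understates the change of low genes, so for GAGE13 and XAGE1B the limit does not carry over to FPKM itself. In bulk RNA, fewer cells that express a gene and less RNA per cell cannot be told apart.

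**Figure D2:**
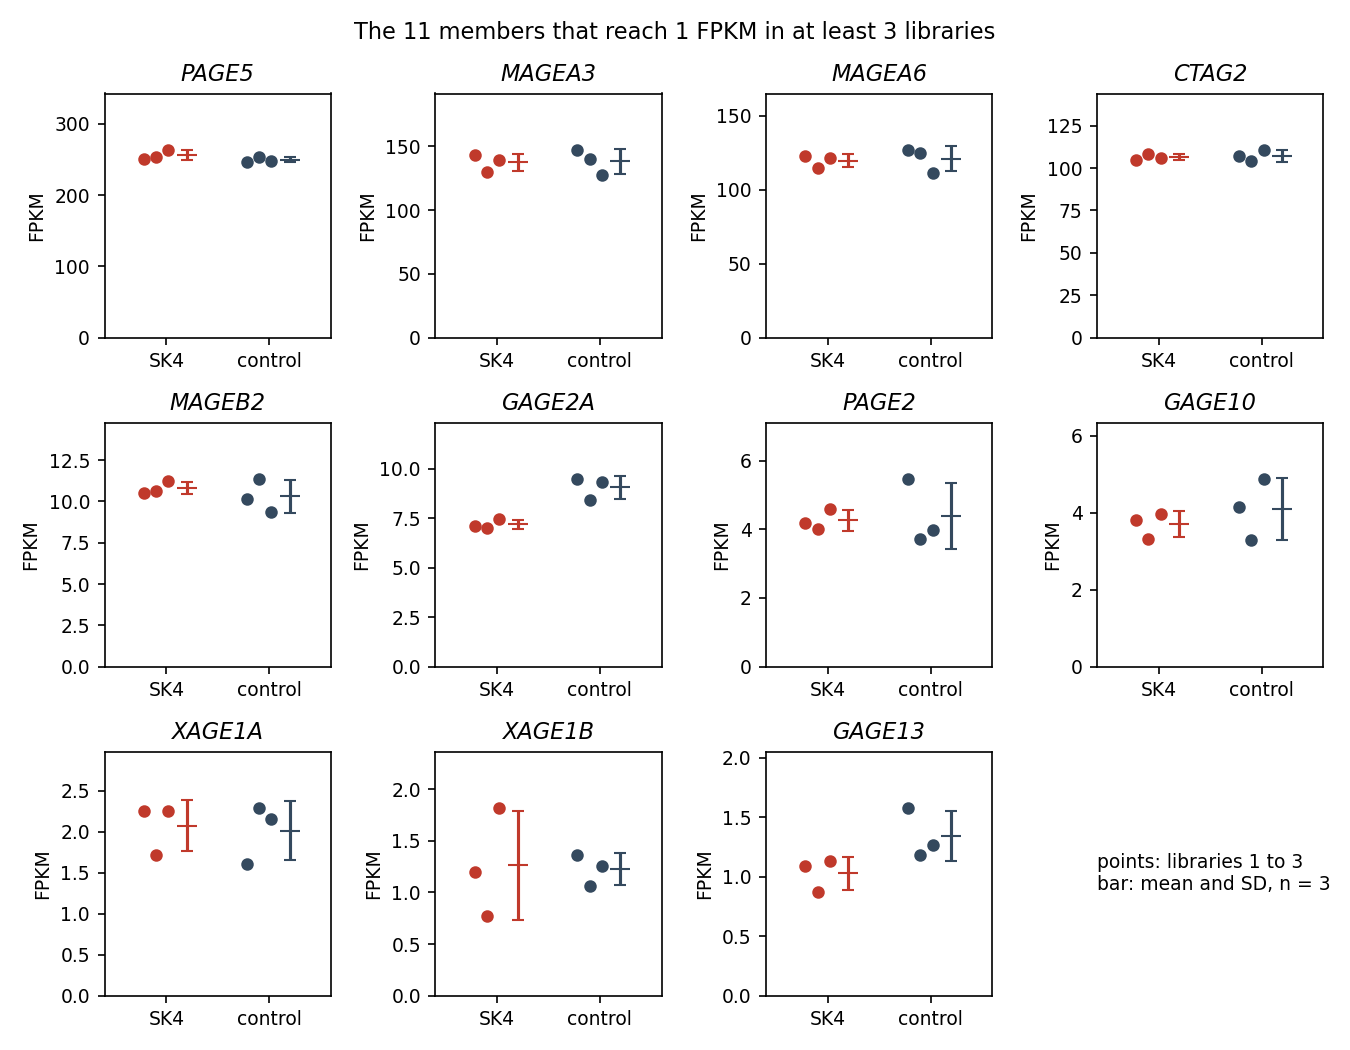
FPKM of the 11 members that were on, in the 3 SK4 plasmid libraries (red, left) and the 3 control plasmid libraries (dark blue, right), with the mean and SD beside the points; each axis starts at 0. GAGE2A and GAGE13 are the panels in which all SK4 points lie below all control points.

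Among the MAGE-A genes, MAGEA3 and MAGEA6 encode near-identical proteins that bind TRIM28, the ligase TRIM28 being best known as a corepressor. MAGEA3 held 143, 130 and 139 FPKM in the SK4 libraries, against 147, 140 and 127 FPKM in the control libraries. MAGEA6 held 123, 115 and 122 FPKM in the SK4 libraries, against 127, 125 and 111 FPKM in the control libraries. The groups overlapped for both genes, and for both the lowest library was control replicate 3 and the next SK4 replicate 2. Their log2 fold changes were -0.0061 (95% confidence interval -0.15 to 0.14) and -0.013 (-0.15 to 0.12). The ratio of MAGEA3 to MAGEA6 stayed between 1.13 and 1.16 in the SK4 libraries and between 1.12 and 1.16 in the control libraries. The longest transcripts of the pair were 98.6% identical, and 27.9% of the windows of 150 nt, the read length, occurred in both, so part of their reads cannot be assigned to either gene by sequence.

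MAGEA3 and MAGEA6 lie 63.8 kb apart on the X chromosome (152698752 to 152702347 on the plus strand and 152766136 to 152769747 on the minus strand, GENCODE 29 on GRCh38), with MAGEA2B, MAGEA12 and MAGEA2 between them. These inner genes averaged 0.568, 0.117 and 0.368 FPKM over the 6 libraries. MAGEA3 was 1181 times as high per length as MAGEA12, which shares none of its 150 nt windows with other MAGE genes. MAGEA12 rested on an estimated 4.43 to 10.2 fragments per library, so folds against it are rough. MAGEA2B and MAGEA2 are near-identical copies whose single values depend on how shared reads were counted, so no fold is given for them. Genes of the CSAG group, named from chondrosarcoma, start beside them on the opposite strand. CSAG2, whose annotated start lies 37 bases from that of MAGEA2B, averaged 20.7 ± 6.87 FPKM in the SK4 libraries and 19.6 ± 4.06 FPKM in the control libraries (SD, n = 3 each). CSAG3, whose start lies 37 bases from that of MAGEA2, averaged 37.3 ± 1.55 FPKM in the SK4 and 37.0 ± 2.09 FPKM in the control libraries. CSAG1, whose start lies 44 bases from that of MAGEA12, averaged 1.78 ± 0.251 FPKM in the SK4 and 1.51 ± 0.182 FPKM in the control libraries. CSAG1 was thus 14.1 times as high as MAGEA12. Sharing of reads between CSAG2 and CSAG3 was not tested. CSAG2 was named after its values were seen.

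**Figure D3:**
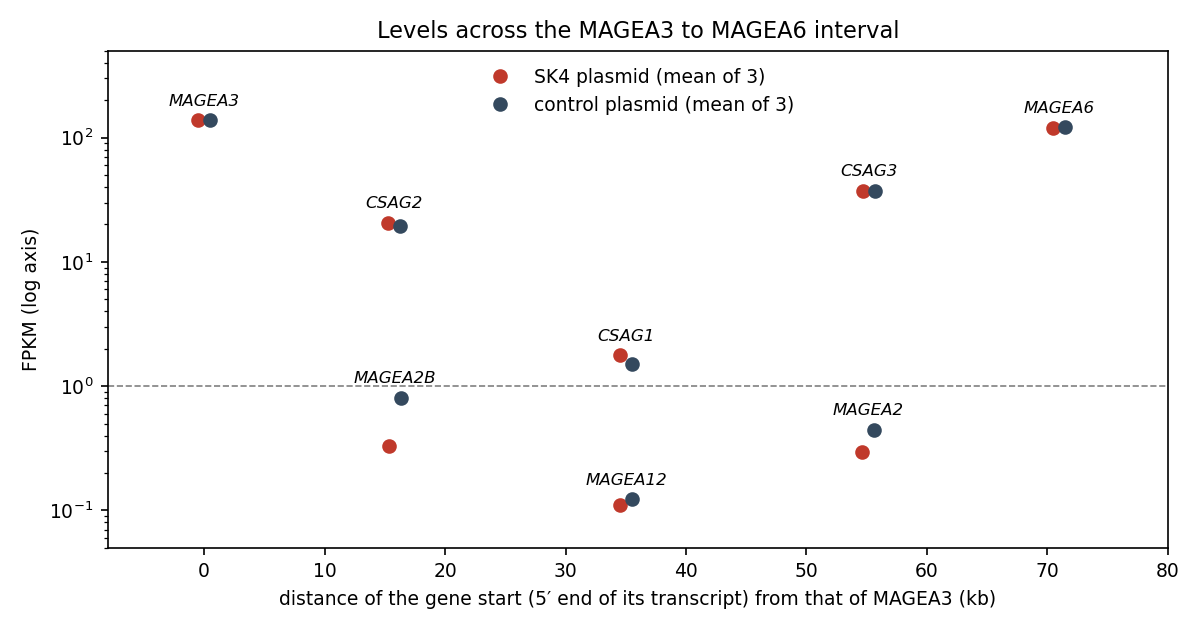
Mean FPKM (log axis) in the SK4 plasmid (red) and control plasmid (dark blue) libraries, n = 3 each, drawn side by side against the distance of each gene's start from that of MAGEA3 in kb. MAGEA3 and MAGEA6 at the ends stand at 119.8 to 138 FPKM, MAGEA2B, MAGEA12 and MAGEA2 lie below 1 FPKM (dashed line), and CSAG2 and CSAG3 lie between; MAGEA2B and MAGEA2 are copies that share reads.

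MAGEA2 and MAGEA2B encode the same kind of MAGE-A protein from copies that cannot be separated: 100% of the 150 nt windows of MAGEA2B occurred in MAGEA2, and 97.8% of those of MAGEA2 in MAGEA2B. MAGEA2B held 0.36, 0.45 and 0.18 FPKM in the SK4 libraries, against 0.80, 1.23 and 0.39 FPKM in the control libraries. MAGEA2 held 0.42, 0.17 and 0.29 FPKM in the SK4 libraries, against 0.40, 0.38 and 0.55 FPKM in the control libraries. Each gene alone overlapped between the groups. Their sum was 0.78, 0.62 and 0.47 FPKM in the SK4 libraries, against 1.20, 1.61 and 0.94 FPKM in the control libraries, so the summed values did not overlap and the SK4 mean was 0.499 of the control mean. This pair was singled out after its values were seen, lay below the threshold and was not in the fit, and rests on an estimated 12.7 to 92.2 fragments per gene and library.

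The other MAGE-A genes were low or nearly silent. MAGEA1, the founding member of the family, was at 0.42 to 0.49 FPKM in the SK4 libraries and 0.28 to 0.59 FPKM in the control libraries. MAGEA4, a target of engineered T cells, and MAGEA11, known as a coregulator of the androgen receptor, stayed at or below 0.04 FPKM in all 6 libraries. The MAGE-B family was carried by MAGEB2, with 99.1% of its summed FPKM. MAGEB2 held 10.5, 10.7 and 11.3 FPKM in the SK4 libraries, against 10.2, 11.4 and 9.37 FPKM in the control libraries, and the groups overlapped (log2 fold change 0.070, 95% confidence interval -0.10 to 0.24). Its neighbour MAGEB3, 10.3 kb away, averaged 0.0050 FPKM and MAGEB4 0.0017 FPKM over the 6 libraries. Of the MAGE-C genes, MAGEC2, which also binds TRIM28, was highest at 0.01 to 0.09 FPKM in the SK4 libraries and 0.07 to 0.10 FPKM in the control libraries.

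Among the PAGE genes, PAGE5 was the highest of all 52 members. It held 250.4, 253 and 264 FPKM in the SK4 libraries, against 247, 253 and 248 FPKM in the control libraries, with a log2 fold change of 0.035 (95% confidence interval -0.038 to 0.11). The groups overlapped, and PAGE5 had the narrowest spread of the 11 members, with a within-group coefficient of variation of 2.15%. PAGE2 held 4.17, 4.01 and 4.60 FPKM in the SK4 libraries, against 5.47, 3.71 and 3.98 FPKM in the control libraries, and control replicate 1 was the highest. PAGE2B, 10.1 kb from PAGE2, averaged 0.0517 FPKM over the 6 libraries. It rested on an estimated 0 to 1.80 fragments per library, so the fold of 83.7 for PAGE2 over PAGE2B is rough. Only 4.73% of the 150 nt windows of PAGE2 occurred in PAGE2B, so most reads of this pair can be told apart. PAGE3, 34.3 kb from PAGE5, averaged 0.010 FPKM, and PAGE4, known from the prostate, was at or below 0.05 FPKM in every library. PAGE1 lay between, at 0.20 to 0.37 FPKM in the SK4 libraries and 0.20 to 0.39 FPKM in the control libraries.

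Among the CTAG genes, CTAG2, which encodes LAGE-1, was high and the copies for NY-ESO-1 were not. CTAG2 held 105, 108 and 106 FPKM in the SK4 libraries, against 107, 104 and 111 FPKM in the control libraries (log2 fold change -0.011, 95% confidence interval -0.093 to 0.070). CTAG1B, 32.7 kb away, was at 0.05 to 0.14 FPKM in the SK4 libraries and 0.07 to 0.10 FPKM in the control libraries. CTAG1A was at 0.03 to 0.08 FPKM in the SK4 libraries and 0.03 to 0.11 FPKM in the control libraries. The longest transcripts of CTAG2 and CTAG1B were 92.3% identical, and 11.5% of the 150 nt windows of CTAG2 also occurred in the CTAG1 copies. CTAG1A shared 76.8% of its windows and CTAG1B 76.3% with the other CTAG genes, so the levels of these copies cannot be set against each other.

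The GAGE genes, whose products were described as melanoma antigens, had the only summed family level whose groups did not overlap. Summed over the 11 genes, the level was 13.7, 13.0 and 15.0 FPKM in the SK4 libraries, against 17.4, 15.3 and 17.8 FPKM in the control libraries, a ratio of means of 0.825. The highest SK4 library, replicate 3, lay just below the lowest control library, replicate 2. The sum is less exposed than single genes to how shared reads were split between copies. GAGE2A made up 49.7% to 54.0% of the sum in the SK4 libraries and 52.2% to 55.0% in the control libraries. Leaving GAGE2A out, the sum was 6.56, 5.96 and 7.55 FPKM in the SK4 libraries, against 7.87, 6.89 and 8.51 FPKM in the control libraries, and the groups overlapped.

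**Figure D4:**
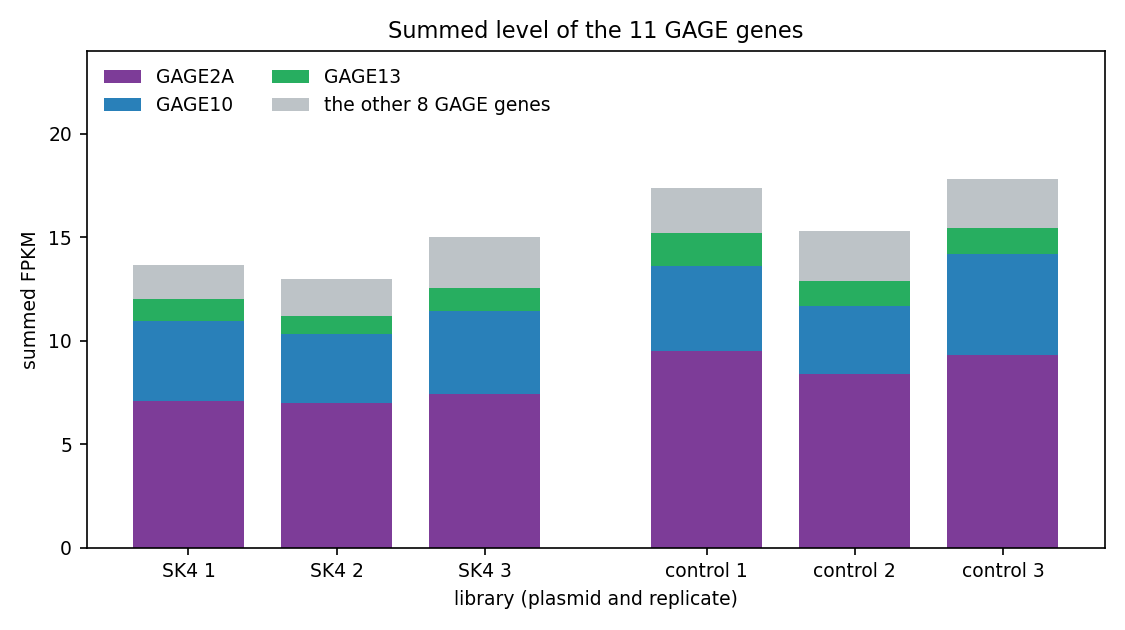
Summed FPKM of the 11 GAGE genes in each SK4 plasmid library (left) and control plasmid library (right), stacked as GAGE2A, GAGE10, GAGE13 and the other 8 genes. The SK4 bars reach 13.0 to 15.0 FPKM and the control bars 15.3 to 17.8 FPKM.

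GAGE2A held 7.11, 7.0 and 7.45 FPKM in the SK4 libraries, against 9.49, 8.41 and 9.31 FPKM in the control libraries. All SK4 values lay below all control values, and the log2 fold change was -0.31 (95% confidence interval -0.46 to -0.17). An estimated 136 to 180 fragments lay behind each value. The within-group coefficient of variation of GAGE2A was 5.07%, below the counting error of 8.57% estimated for its lowest library, so the interval may be too narrow. Of the 150 nt windows of GAGE2A, 31.9% also occurred in other GAGE genes. The annotated GAGE1 gene, at 0.11 to 0.12 FPKM in the SK4 libraries and 0.12 to 0.20 FPKM in the control libraries, overlaps GAGE2A on the same strand, so reads of the overlap cannot be told apart. GAGE13 was the other tested member whose groups did not overlap, with 1.09, 0.87 and 1.13 FPKM in the SK4 libraries, against 1.58, 1.18 and 1.27 FPKM in the control libraries (log2 fold change -0.27, 95% confidence interval -0.54 to 0.0082). GAGE13 rested on an estimated 17.0 to 30.1 fragments, and 64.0% of its windows were shared. Its coefficient of variation, 14.6%, was also below the counting error at its lowest library, 24.3%. In all, 2 of the 11 tested members lay entirely lower and 0 entirely higher, against 1.81% and 3.53% of all tested genes, or 5.34% in either direction. The count of entirely higher members was 1 without control replicate 1 (PAGE2) and 2 without control replicate 2 (PAGE5 and MAGEB2). With 2 libraries left in 1 group, groups fail to overlap more often by construction. The share over all tested genes is not given for these settings, so these counts cannot be set against the shares above. GAGE10 held 3.82, 3.33 and 3.97 FPKM in the SK4 libraries, against 4.14, 3.28 and 4.88 FPKM in the control libraries, so its groups overlapped. Its log2 fold change was -0.12 with all libraries, 0.0033 without control replicate 3 and -0.25 without control replicate 2. Only 1.54% of its windows occurred in another gene of these families.

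The other 8 GAGE genes were not on. GAGE2E, at 0.41, 0.67 and 0.52 FPKM in the SK4 libraries and 0.62, 0.52 and 1.25 FPKM in the control libraries, and MAGEA2B were the members just outside the threshold, each reaching 1 FPKM in 1 library. GAGE13 and XAGE1B were those just inside it. For GAGE2E, GAGE12G, GAGE12C and GAGE12E, 100% of the windows of the longest transcript occurred in other GAGE genes, so their own levels cannot be read from these values. GAGE12E was listed at 0 in all 3 SK4 libraries and at 0.05, 0 and 0 FPKM in the control libraries.

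Among the XAGE genes, XAGE1A and XAGE1B are inverted copies with the same transcript, 733 nt at 100% identity, so the split of reads between them carries no information. XAGE1A held 2.25, 1.71 and 2.25 FPKM in the SK4 libraries, against 1.60, 2.29 and 2.15 FPKM in the control libraries. XAGE1B held 1.20, 0.77 and 1.82 FPKM in the SK4 libraries, against 1.36, 1.06 and 1.26 FPKM in the control libraries, the widest spread of the 11 members. Added together, the copies held 3.45, 2.48 and 4.07 FPKM in the SK4 libraries, against 2.96, 3.35 and 3.41 FPKM in the control libraries, so the groups overlapped. XAGE2 and XAGE3 stayed at or below 0.14 FPKM. Of the SSX genes, SSX1 was at or below 0.09 and SSX4B at or below 0.02 FPKM. Of the CTAGE genes, CTAGE4 was highest at 0.30 to 0.54 FPKM in the SK4 libraries and 0.25 to 0.65 FPKM in the control libraries, with 91.0% of its windows shared with other CTAGE genes.

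**Figure D5:**
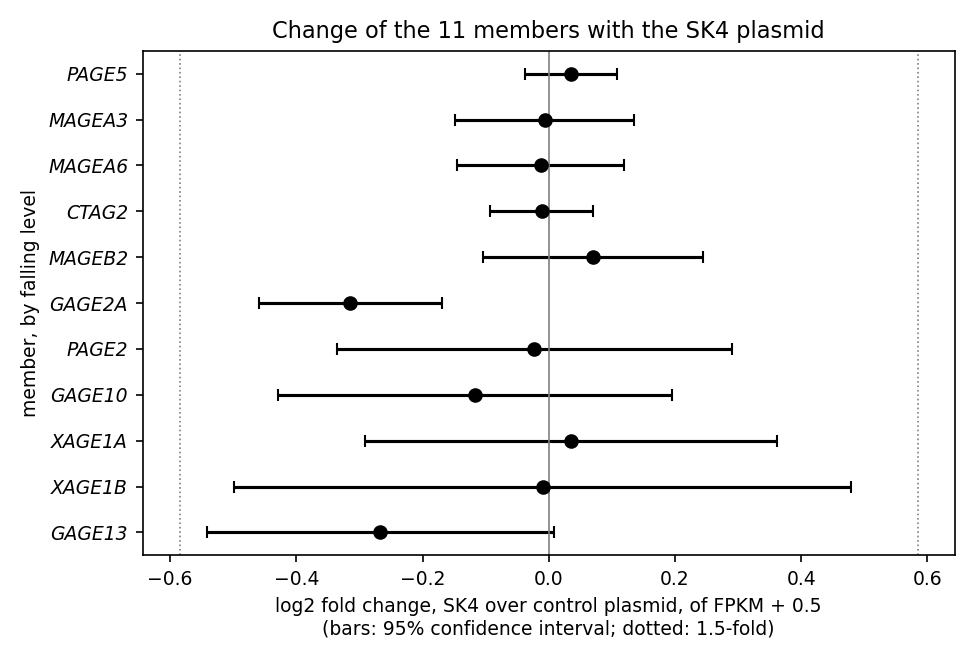
Log2 fold change of FPKM + 0.5, SK4 over control plasmid, of the 11 members that were on, ordered from the highest level at the top to the lowest, with 95% confidence intervals from limma (n = 3 against 3). All intervals stay inside the dotted lines at 1.5-fold, and GAGE2A, at -0.31, is the member whose interval does not include 0. The GAGE2A values took part in choosing the families, so its interval is a description and no test.

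Genes outside the families were read from lists of known roles. Of 62 other cancer-testis genes, 48 were in the table, 12 were on, and 0 were called higher or lower (median log2 fold change 0.030 over the 12). CSAG2, described above at a level over that of KIF2C, was not on this list, and CSAG3 was the highest of the listed genes. Next were KIF2C at 15.6 to 16.0 FPKM in the SK4 and 15.7 to 17.0 FPKM in the control libraries, and PBK at 12.4 to 15.3 FPKM in the SK4 and 11.7 to 15.4 FPKM in the control libraries, which encode a mitotic kinesin and a mitotic kinase that dividing cells of many tissues use. Germ cell genes outside the cancer-testis families were not on: 13 of 20 were in the table, 0 reached the threshold, and their summed level was 0.28 to 0.35 FPKM in the SK4 libraries and 0.16 to 0.25 FPKM in the control libraries. DDX4 and DAZL, which mark germ cells, were at or below 0.03 FPKM. Of 11 type II MAGE genes, which many tissues express, 4 were on, 0 were called, and the highest was MAGED2 at 27.3 to 27.7 FPKM in the SK4 and 26.1 to 27.9 FPKM in the control libraries.

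All 11 listed ubiquitin ligase partners of MAGE proteins were on and 0 were called (median log2 fold change 0.0036). TRIM28 was the highest, with 97.0, 101 and 96.2 FPKM in the SK4 libraries, against 97.1, 99.4 and 102 FPKM in the control libraries. Of 27 factors of DNA methylation and germline gene silencing, 17 were on and 0 were called (median 0.025). HDAC1, a histone deacetylase, was the highest at 55.2 to 57.6 FPKM in the SK4 and 56.7 to 58.0 FPKM in the control libraries. DNMT1, which copies methylation after replication, held 5.99, 6.10 and 6.06 FPKM in the SK4 libraries, against 6.33, 6.20 and 5.68 FPKM in the control libraries. DNMT1 was named after its values were seen, and its groups overlapped.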

How the data were processed

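Reads were 150 nt pairs from a dUTP strand-marked kit, per the labels' protocols. The submitters' processing notes name HISAT2 and GRCh38; no source used here gives the version, the counting tool, the annotation or the handling of reads shared by several copies. The authors deposited FPKM values per gene and library, rounded to 2 decimals. Groups came from sample titles; in control replicate 3, 1 label gives another cell line number than the rest. The members, lists and thresholds were chosen with earlier results of these data known. Genes reaching 1 FPKM in 3 or more of 6 libraries were fitted as log2(FPKM + 0.5) with limma 3.58.1 in R 4.3.3 (trended, robust prior; group as the only term; Benjamini-Hochberg over 11139 genes). Fold changes on this scale understate the change of low genes. The fit was tested on simulated data. No p-value was computed for a family or list.

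Depth was estimated from single-exon genes under 160 nt, whose low FPKM values are multiples of 1 fragment; at least 99.4% of values worth up to 5 fragments were whole within 0.1. Fragments per gene then follow from the longest GENCODE 29 transcript and cover counting error only. Shared windows were counted over all transcripts of these gene families, and identities come from alignments with free ends in Biopython 1.88. Named genes were KCNN4, members that were on, the highest or nearly-on others, and the highest genes of each list; silent members near them, CSAG2, MAGEA6-DT and DNMT1 were named after their values were seen. Alternatives covered the pseudocount, filter, scaling, prior, library weights, replicate number and leaving out libraries.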

Additional observations from a re-analysis of the deposited data

How the results depend on the processing

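No member was called under any alternative tried with limma (171 member values, lowest adjusted p = 0.299, GAGE2A with library weights), and none of these values moved by more than 1 SD between replicates. The replicate number did not pair the libraries (correlations of deviations 0.31, -0.41 and -0.15 for numbers 1 to 3). With the replicate block the median of the 11 members was -0.011 and KCNN4 stayed called (log2 fold change 4.23). Entirely higher members numbered 1 with no filter on low values (CTAGE15, listed at 0 in every control library), and 0 to 2 with each library left out. Entirely lower members numbered 1 at a filter of 5 FPKM, where fewer members are tested, and 2 to 3 with each library left out. The share over all tested genes is not given for these settings, and with fewer libraries groups fail to overlap more often by construction. Over all tested genes, leaving out control replicate 3 and SK4 replicate 2 together gave 3 genes higher and 1 lower, where all 6 libraries gave 1 and 0; no member was among them, and the cause was not tested. The number of members on was 20 at 0.3 FPKM, 6 at 5 FPKM and 40 at any value above 0. The log2 ratio of the GAGE sum was -0.28, and ran from -0.34 to -0.23 with each library left out; without control replicate 3 and SK4 replicate 2 together it was -0.19. Many members under 1 FPKM rest on few fragments, and small differences between them are not detectable at this depth. The 1 FPKM line does not separate few from many fragments. CTAGE4, not on, had an estimated 19.2 to 64.8 fragments per library, against 17.0 to 30.1 for GAGE13, which was on.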

Other observations

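MAGEA6-DT, a long noncoding RNA gene named as a divergent transcript of MAGEA6, was above 1 FPKM in every library, although it lies outside the protein-coding members. It held 1.50, 1.66 and 1.48 FPKM in the SK4 libraries, against 2.02, 1.67 and 1.57 FPKM in the control libraries, and the groups overlapped. The other noncoding or pseudogene rows of the families were close to 0: MAGEA5, MAGEA10-MAGEA5, MAGEA4-AS1, SSX8P, CTAGE7P and CTAGE10P were at or below 0.06 FPKM in every library. CSAG4, a pseudogene of the CSAG group, was at or below 0.18 FPKM.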
